A study of Mus musculus and Ictidomys tridecemlineatus with 36 samples.

Results

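The *Prdm1* locus was taken as the *Prdm1* gene (ENSMUSG00000038151, chr10:44437177-44528501 of GRCm38, minus strand) with 100 kb added on each side, a window of 291 kb from 44337177 to 44628501. Its members were all CUT&RUN peaks of P2 mouse retina that overlapped this window, 79 of the 246656 peaks in the 5 mouse lists. There were 4 of 14069 H3K4me3 peaks, 18 of 62930 H3K27ac peaks, 42 of 135798 H3K4me1 peaks, 11 of 29115 Otx2 peaks, and 4 of 4744 Neurod1 peaks. Within the locus, position alone chose the members, and no peak was removed for a low value. The locus itself was picked as a gene with many intragenic Otx2 and Neurod1 peaks. Its counts of these peaks are thus not independent of that choice.

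*Prdm1* encodes Blimp1, a zinc finger TF that represses transcription. In the postnatal mouse retina it is known for steering newborn cells that express Otx2 toward the photoreceptor fate and away from the bipolar fate. Otx2 is a homeodomain TF that photoreceptor and bipolar cells share and that *Prdm1* expression depends on, and Neurod1 is a basic helix-loop-helix TF of photoreceptor precursors. H3K4me3 marks the starts of transcribed or poised genes, H3K4me1 marks enhancers and the borders of promoters, and H3K27ac marks active enhancers and promoters.

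In CUT&RUN, an antibody on intact nuclei directs a nuclease to its target, and the DNA released around that target is sequenced. The study profiled snap-frozen whole retinas of P2 mice and of 13LGS, of which only the mouse lists were used here. The 20 mouse libraries, of 36 in the series, came from 2 biological replicates, each a pool of 3 animals, with 385000 nuclei per reaction: 2 libraries each for H3K4me3, H3K27ac, H3K4me1, and the IgG control, 4 for Neurod1, and 8 for Otx2, which used an R&D Systems antibody in 4 and an Atlas Antibodies one in 4. The labels give neither a genotype nor a strain for these mice, and no group received a treatment. The authors called peaks jointly across replicates of a target against IgG, and the labels tie 1 Otx2 list to the libraries of both antibodies. How both antibodies entered that list is not given in the sources used here. Every peak has 1 value, a fold enrichment of signal over IgG. No spread between replicates exists, no difference below was tested, and the values are descriptions. Because whole retinas were used, fewer cells with a bound site and less signal per cell cannot be told apart.

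Which peaks count as intragenic depends on the transcript. The GENCODE M21 transcript Prdm1-201 and the curated RefSeq model start at 44458748, and transcripts Prdm1-202 and Prdm1-204 start at 44458687 and 44457210. Only Prdm1-203 starts far upstream, at 44528501, 69.8 kb away. Distances below are in kb from the RefSeq start at 44458748 to the summit, the position of highest signal, with positive values upstream. All 4 Neurod1 peaks and 8 of the 11 Otx2 peaks had their summits between both ends of that interval. They were inside the gene only by the distal transcript and upstream of the gene by the other transcripts.

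At 4 sites an Otx2 peak overlapped a Neurod1 peak, and the strongest Otx2 peak of the locus was among them. These 4 sites are shown as 300 bases centred on the Otx2 summit. Each is read 5′ to 3′ in the direction of *Prdm1* transcription, on the minus strand of GRCm38. Capitals mark TAATC, the core of the site bound by Otx2 and Crx, on either strand. The site at 5.86 kb is chr10:44464458-44464757, that at 15.5 kb is chr10:44474066-44474365, that at 18.1 kb is chr10:44476713-44477012, and that at 34.8 kb is chr10:44493407-44493706.
Otx2 summit at 5.86 kb: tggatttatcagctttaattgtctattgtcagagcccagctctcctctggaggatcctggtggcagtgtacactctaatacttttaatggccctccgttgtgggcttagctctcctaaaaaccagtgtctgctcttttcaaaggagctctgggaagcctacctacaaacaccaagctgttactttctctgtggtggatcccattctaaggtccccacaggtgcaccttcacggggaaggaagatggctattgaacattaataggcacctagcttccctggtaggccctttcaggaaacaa
Otx2 summit at 15.5 kb: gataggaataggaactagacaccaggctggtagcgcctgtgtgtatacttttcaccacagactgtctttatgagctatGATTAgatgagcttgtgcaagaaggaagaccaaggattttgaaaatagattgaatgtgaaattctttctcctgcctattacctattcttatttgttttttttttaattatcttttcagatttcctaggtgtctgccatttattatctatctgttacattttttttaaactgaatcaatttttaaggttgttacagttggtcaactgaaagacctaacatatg
Otx2 summit at 18.1 kb: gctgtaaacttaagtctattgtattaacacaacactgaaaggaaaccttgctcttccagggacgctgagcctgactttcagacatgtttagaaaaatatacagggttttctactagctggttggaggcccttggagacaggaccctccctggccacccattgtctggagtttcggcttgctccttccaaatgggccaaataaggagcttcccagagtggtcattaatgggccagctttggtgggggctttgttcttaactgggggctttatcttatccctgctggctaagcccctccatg
Otx2 summit at 34.8 kb: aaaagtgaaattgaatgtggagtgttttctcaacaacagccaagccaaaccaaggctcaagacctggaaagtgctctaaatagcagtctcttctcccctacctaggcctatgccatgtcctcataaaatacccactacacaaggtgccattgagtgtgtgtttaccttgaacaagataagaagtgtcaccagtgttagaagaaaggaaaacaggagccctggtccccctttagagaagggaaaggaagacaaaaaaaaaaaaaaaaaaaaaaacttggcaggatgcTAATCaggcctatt

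The promoter is shown because the strongest H3K4me3 peak of the locus covered it. It comprises 250 bases before the RefSeq start and 50 after it (RefSeq, GRCm38, chr10:44458699-44458998, minus strand), with a GC content of 59.7%.
*Prdm1* promoter: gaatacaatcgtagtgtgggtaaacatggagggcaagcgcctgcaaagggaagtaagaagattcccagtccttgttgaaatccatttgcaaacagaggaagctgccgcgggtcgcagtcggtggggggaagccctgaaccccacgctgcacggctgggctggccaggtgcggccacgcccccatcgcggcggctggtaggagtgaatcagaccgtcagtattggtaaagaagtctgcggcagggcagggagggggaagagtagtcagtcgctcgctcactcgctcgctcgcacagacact

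H3K4me3, the promoter mark, formed 1 broad peak over the proximal starts of *Prdm1* and 3 weaker ones upstream. The main peak (44452249-44459974) spanned 7726 bp, covered 3 annotated starts, and had a fold enrichment of 60.4 with a −log10 q of 438. It ranked 208th of the H3K4me3 list by fold, with 1.48% of the list at least as enriched, and 26th by width, with 0.185% at least as wide. The mark thus reached further over the first part of the transcribed gene than upstream of it, with its summit at −1.98 kb. The other 3 peaks were below the list's median fold of 13.5.

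Among these 3, the peak at 10.2 kb (44468501-44470934) was 2434 bp wide with a 10.96-fold enrichment, and its nearest annotated start was 9753 bp away. It overlapped 2 H3K27ac peaks of 3.46-fold and 3.85-fold and no Otx2 or Neurod1 peak. The small peak beside it (44467816-44468088) was 3.55-fold over 273 bp. The peak at 71.0 kb (44529082-44530140) was 8.23-fold over 1059 bp and lay 581 bp upstream of the distal start. No H3K4me3 peak covered that distal start, nor the predicted RefSeq start at 44528558, which was 524 bp from this peak. The proximal and the distal start thus both had a promoter mark on or near them, and the proximal one was the stronger. Of the 4 H3K4me3 peaks, 4 overlapped H3K4me1, against 88.1% of the list, 2 overlapped Otx2, against 78.6%, and 0 overlapped Neurod1, against 8.2%.

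H3K27ac, the mark of active elements, covered little of the *Prdm1* promoter itself. A single 2.53-fold H3K27ac peak of 374 bp, 784 bp upstream of the RefSeq start, covered 4.84% of the main H3K4me3 peak. Of the 208 H3K4me3 peaks with at least that fold, 166 overlapped some H3K27ac, and a median of 22.5% of their width was covered. In the whole list, 29% of H3K4me3 peaks overlapped H3K27ac, against 2 of the 4 in the window, so the median cover over all 14069 was 0%, and where there was any, a median of 36.8% was covered. H3K4me1 covered 79.9% of the main H3K4me3 peak but left a gap over the start, from the end of 1 peak at 44457955 to the beginning of the next at 44458976. The start itself thus lay in called H3K4me3 and Otx2 peaks and in no called H3K4me1 or H3K27ac peak. Signal below the calling threshold is not seen in these lists.

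**Figure D1:**
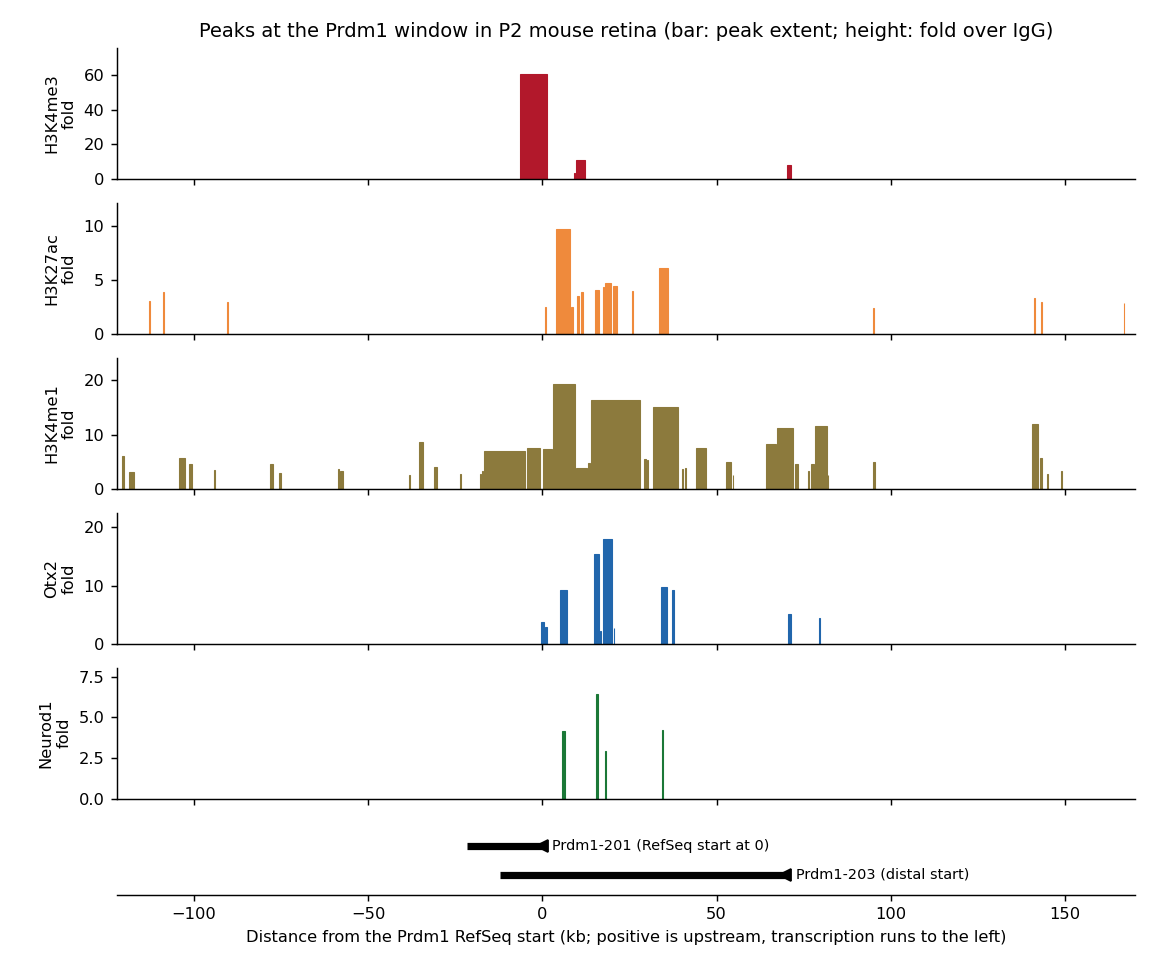
Peaks of the 5 targets over the 291 kb *Prdm1* window, drawn by distance from the RefSeq start in kb (x axis, positive upstream) and fold enrichment over IgG (y axis, a scale per target), each bar spanning 1 peak, with transcripts Prdm1-201 and Prdm1-203 below. The main H3K4me3 peak, 60.4-fold, covers the RefSeq start and has its summit at −1.98 kb. The 4 Neurod1 peaks and 8 of the 11 Otx2 peaks have their summits between both starts.

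Acetylation was instead concentrated between the starts. Of the 18 H3K27ac peaks, 11 had their summits in that 69.8 kb interval, which makes up 23.9% of the window, 3 lay in the downstream flank, 4 in the upstream flank, and none in the 21.6 kb from the RefSeq start to the 3′ end of the gene. The 7 flank peaks had folds from 2.44 to 3.84, and 8 of the 11 peaks between the starts exceeded 3.84. H3K27ac covered 18.7% of the interval, against 0.831% of the downstream flank and 1.26% of the upstream flank.

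The strongest H3K27ac peak stood at 6.73 kb, was 3983 bp wide, and had a fold of 9.71, with 0.648% of the list at least as enriched. The others of the highest 5 were 6.11-fold at 34.9 kb, 4.67-fold at 18.7 kb, 4.43-fold at 20.8 kb, and 4.34-fold at 17.5 kb. All 5 overlapped an Otx2 peak described below. Over all 18 peaks the folds ran from 2.44 to 9.71, and 10 were at or above the list's median of 3.36. An Otx2 peak overlapped 7 of them, against 16.6% of the list, a Neurod1 peak 4, against 3.9%, an H3K4me3 peak 3, against 7.57%, and an H3K4me1 peak 14, against 58.9%.

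H3K4me1, the mark of enhancers in general, was the most extensive, with 42 peaks over 28.7% of the window. It covered 74.1% of the gene downstream of the RefSeq start and 65.1% of the interval between the starts, against 10.6% and 11.7% of the flanks. The highest peak, 19.3-fold and 6301 bp wide at 6.34 kb, coincided with the strongest H3K27ac peak. The second, 16.5-fold at 19.7 kb, was 13941 bp wide, the widest in the window, and held the Otx2 peaks at 15.5, 16.7, 18.1, and 20.5 kb. The third, 15.1-fold and 7211 bp wide at 34.4 kb, held those at 34.8 and 37.6 kb. These 3 domains carried all 4 Neurod1 peaks.

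The remaining peaks of the highest 5 lay beyond the distal start, 12.0-fold at 141 kb and 11.6-fold at 79.6 kb. The peak at 141 kb had no Otx2 peak, and a 3.31-fold H3K27ac peak stood in it. It lay over the noncoding RNA genes Gm48065 and Gm35154 rather than over *Prdm1*. All 42 H3K4me1 folds lay between 2.55 and 19.3, and 24 were at or above the list's median of 4.25. H3K27ac overlapped 8 of the 42, against 21.5% of the list, Otx2 6, against 16%, Neurod1 3, against 2.82%, and H3K4me3 6, against 12.1%. A wide domain counts once here however many Otx2 or Neurod1 peaks it holds.

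Otx2 was bound at the proximal promoter, near the distal start, and at a set of stronger sites between them. The Otx2 peaks ran from 2.17-fold to 18.0-fold with a median of 5.09, against 3.54 in the list, and 8 of the 11 were at or above that list median. The peak over the RefSeq start (44458339-44459231, summit at −0.182 kb) was 3.75-fold, just above the list median, and 44.2% of the list was at least as enriched. Its neighbour at 0.910 kb was 2.80-fold, with 77.8% of the list at least as enriched. The peaks upstream included both stronger and weaker ones than that over the start.

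The strongest Otx2 peak, at 18.1 kb (44476133-44478761), was 18.0-fold over 2629 bp with a −log10 q of 197. It ranked 72nd in the list, with 0.247% of Otx2 peaks at least as enriched. The peak at 15.5 kb (44473501-44474969) was 15.4-fold, and 0.484% of the list was at least as enriched. Both stood within the same H3K4me1 domain, with a weak 2.17-fold peak between them and a 2.67-fold peak beyond at 20.5 kb.

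Next came the peaks at 34.8 kb (44492716-44494620), 37.6 kb (44496033-44496538), and 5.86 kb (44463971-44465847), with 9.75-fold, 9.31-fold, and 9.30-fold enrichment. Of the Otx2 list, 2.82%, 3.29%, and 3.31% were at least as enriched as these 3 in turn. The peak at 37.6 kb differed from the other strong ones in that it was only 506 bp wide and overlapped neither H3K27ac nor Neurod1. The last peaks were 5.09-fold at 70.6 kb, inside the H3K4me3 peak near the distal start, and 4.33-fold at 79.6 kb.

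**Figure D2:**
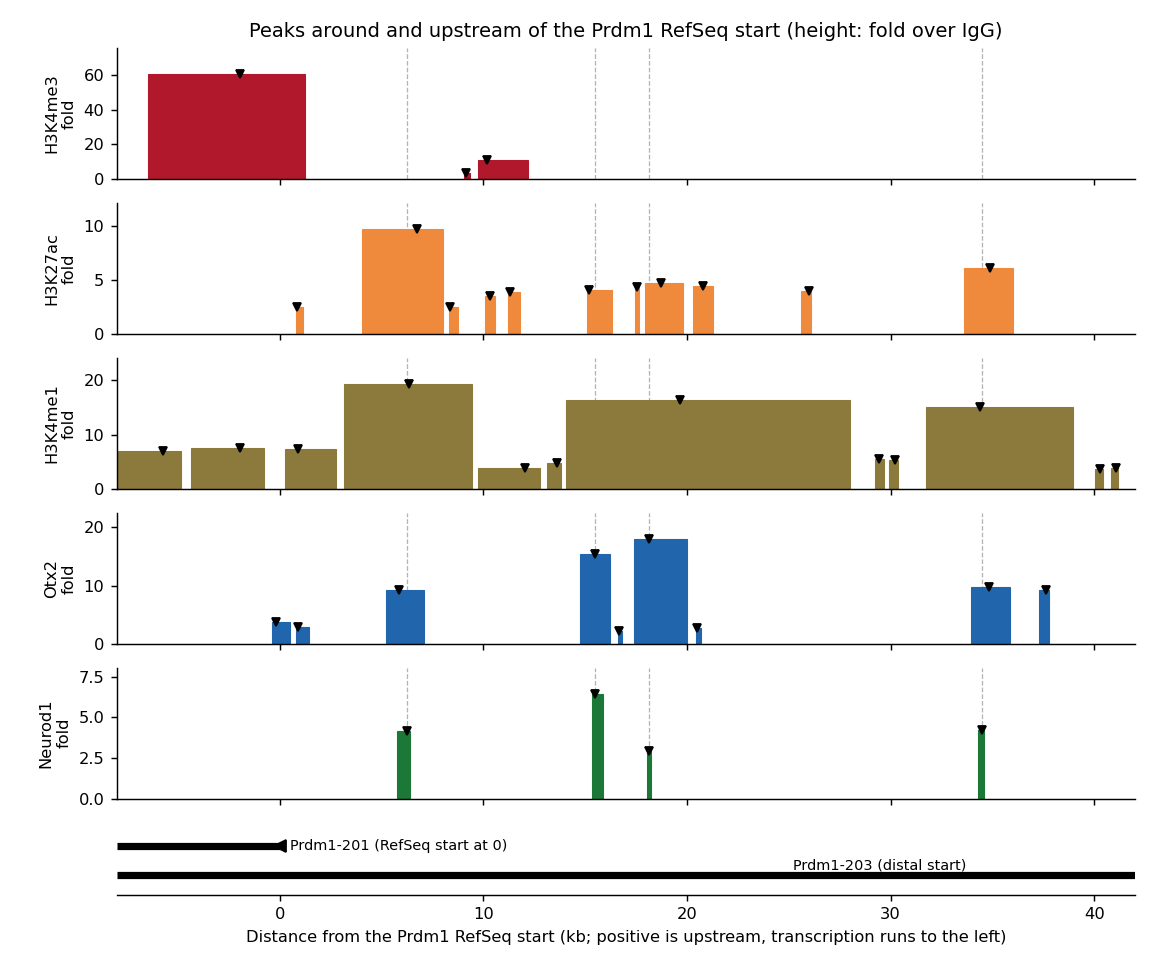
A closer view of the RefSeq start and the region upstream of it, with distance in kb on the x axis, fold enrichment over IgG on the y axis, black triangles at summits, and dashed lines at the 4 Neurod1 summits. Each Neurod1 line crosses an Otx2, an H3K4me1, and an H3K27ac bar, and none crosses an H3K4me3 bar.

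Every Neurod1 peak of the window lay on an Otx2 peak between the starts. The Neurod1 peaks were 4.18-fold at 6.25 kb (44464493-44465132), 6.44-fold at 15.5 kb (44474070-44474616), 2.94-fold at 18.1 kb (44476776-44476973), and 4.24-fold at 34.5 kb (44493017-44493319). Their places in the list were moderate, with 39.7%, 14.2%, 79.9%, and 38.6% of Neurod1 peaks at least as enriched. The site with the highest Otx2 fold was thus the one with the lowest Neurod1 fold, and the Neurod1 peak there was 198 bp wide.

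All 4 Neurod1 peaks overlapped Otx2 by at least 1 bp, against 82.1% of the Neurod1 list. Likewise all 4 overlapped H3K27ac, against 52.3%, and H3K4me1, against 85.2%, and none overlapped H3K4me3, against 25.6%. The full combination of Otx2, H3K27ac, and H3K4me1 without H3K4me3 was present at 34.7% of the list. All 4 peaks of the window had this combination, and the class of active enhancer, which ignores Otx2, held 40.1% of the list.

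Seen from Otx2, 4 of 11 peaks overlapped Neurod1, against 13.1% of the Otx2 list, and these 4 also had H3K27ac and no H3K4me3, against 5.65%. The locus was picked for many intragenic peaks of both factors, so these shares are not independent of that choice. The 4 had folds of 9.30 to 18.0 (median 12.6), and the 7 others had folds of 2.17 to 9.31 (median 3.75). These ranges touch only through the peak at 37.6 kb. In the whole list the medians were 5.00 for the 3823 Otx2 peaks with Neurod1 and 3.42 for the 25292 without, so higher Otx2 folds beside Neurod1 were a feature of the list too. The 4 peaks were also wider, 1469 to 2629 bp against 209 to 893 bp, as in the list, with median widths of 854 and 527 bp. A wider peak has more bases that can overlap. Whether Neurod1 overlap went with Otx2 fold apart from width was not tested.

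By the marks beneath them, with H3K4me3 read as promoter, H3K27ac without H3K4me3 as active enhancer, and H3K4me1 alone as poised enhancer, the 11 Otx2 peaks divided into 3 promoter, 5 active, and 3 poised sites. The shares of the Otx2 list were 43.3%, 22.6%, and 26.9%, and no Otx2 peak of the window was without a mark. The names are borrowed from the study, which gave them to accessible elements and also required a minimum average signal of each mark. Here they went to TF peaks by an overlap of 1 bp alone, with no accessibility or signal criterion, and they were not checked against activity. All 11 Otx2 peaks overlapped H3K4me1, against 78.9% of the list, and 6 overlapped H3K27ac, against 36.2%. The active sites were the 4 with Neurod1 and the weak peak at 20.5 kb.

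**Figure D3:**
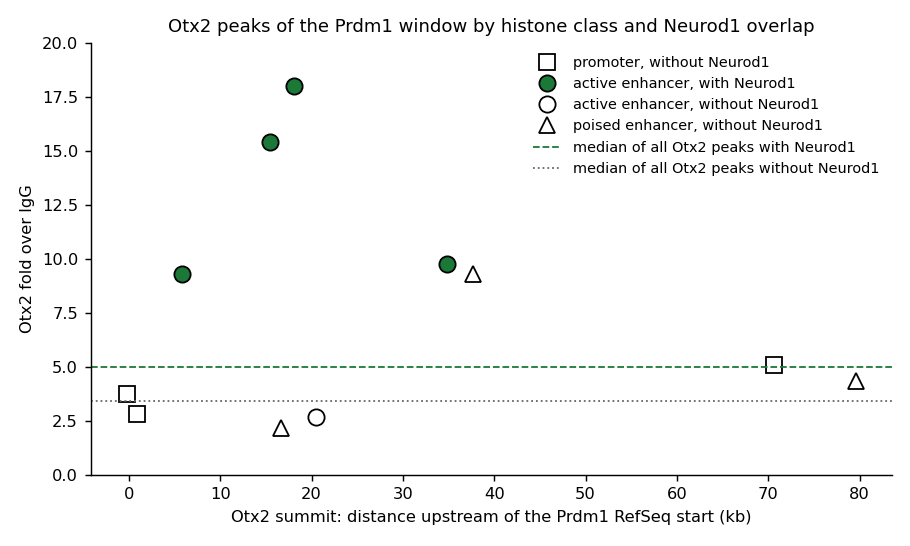
Each of the 11 Otx2 peaks by distance upstream of the RefSeq start in kb (x axis) and Otx2 fold over IgG (y axis), with the symbol giving the histone class, a green fill marking overlap with Neurod1, and lines at the list medians of 5.00 (with Neurod1) and 3.42 (without). The 4 filled points stand at 9.30-fold or above, and the only open point near them is the poised site at 37.6 kb with 9.31-fold.

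The factor summits were close at 2 of the 4 shared sites. Otx2 and Neurod1 summits were 2 bp apart at 15.5 kb and 21 bp apart at 18.1 kb, and 394 bp and 329 bp apart at 5.86 kb and 34.8 kb. The 4 distances had a median of 175 bp, against 66 bp over the 3895 overlapping pairs of the list, whose quartiles were 25 and 211 bp. Of those pairs, 25.5% were within 25 bp. The locus thus held sites of both kinds, tightly matched and offset.

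The histone marks also differed among the 4 shared sites. The H3K27ac peaks there were 9.71-fold at 5.86 kb, 4.02-fold at 15.5 kb, 4.67-fold at 18.1 kb, and 6.11-fold at 34.8 kb. The order of H3K27ac was therefore not that of Otx2, since the 2 sites with the highest Otx2 folds had the lowest H3K27ac folds. The H3K4me1 domains were 19.3-fold, 16.5-fold for both middle sites, and 15.1-fold. From the Otx2 summit, the nearest H3K27ac summit was 867, 274, 596, and 65 bp away in the same order of sites. At 18.1 kb the Otx2 peak overlapped 2 H3K27ac peaks. The nearest summit there was that of the 4.34-fold peak, and that of the 4.67-fold peak was 616 bp away.

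**Figure D4:**
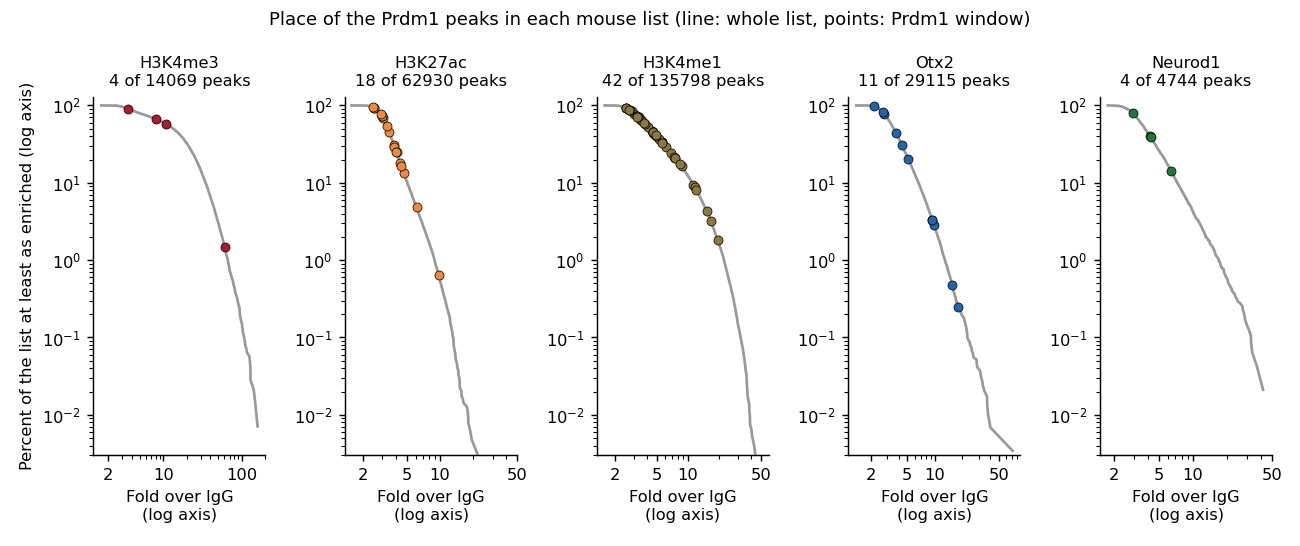
For each target, the gray line gives the percent of the whole mouse list (y axis, log) at least as enriched as a given fold over IgG (x axis, log), and points are the *Prdm1* peaks. The strongest peak reaches 1.48% for H3K4me3, 0.648% for H3K27ac, and 0.247% for Otx2, but only 14.2% for Neurod1.

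The motifs sought on both strands were TAATCC, the preferred site of Otx2 and Crx, and the E-boxes CAGATG and CAGCTG, of the kind bound by basic helix-loop-helix TFs such as Neurod1. Within 150 bp of an Otx2 summit, TAATCC was found in 0 of 11 members, against 18.2% of the list, CAGATG in 2, against 22.2%, and CAGCTG in 2, against 20.6%. Around the 4 Neurod1 summits, TAATCC was found in 0, against 14.2%, CAGATG in 1, against 52.1%, and CAGCTG in 2, against 39.8%. The shorter TAATC, chosen after these values were seen, occurred within 150 bp of 2 Otx2 summits, against 34.6%, and of 3 Neurod1 summits, against 30.9%. The printed summit sequences at 15.5 and 34.8 kb hold it once each, and those at 5.86 and 18.1 kb do not hold it. Of 32851 promoters of the same length, 7.06% held TAATCC, 17.2% CAGATG, and 16.3% CAGCTG, and the *Prdm1* promoter held none of the 3.

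Within the full width of the peaks, TAATCC was present in 4 of the 11 Otx2 members, at 7 sites, against 28.6% of the list. A wider peak has more bases to search, and the median width was 880 bp in the members and 561 bp in the list. The peaks at 18.1 and 15.5 kb, 2629 and 1469 bp wide, held 3 and 2 of the sites. Whether site number went with Otx2 fold apart from width was not tested. The nearest TAATCC site was 177 bp from a summit. It stood next to an E-box: CAGATG and TAATCC, read on opposite strands, were separated by 1 base, 22 bp outside the Neurod1 peak. A TAATCC within 10 bp of a CAGATG was found in 1 of the 11 members and in 0.893% of the Otx2 list, 260 peaks. The search was set up after this pair had been seen, so at least 1 member was certain to hold it. The pair lay in the peak at 15.5 kb. It is shown with 2 of the 3 TAATCC sites of the strongest peak, those 184 and 1656 bp from its summit. The remaining site of that peak, 275 bp from its summit, is not shown. Each TAATCC has 20 bases on each side, on the minus strand of GRCm38, with the motifs in capitals (GGATTA is TAATCC on the other strand). The stretches shown are chr10:44474016-44474061, chr10:44476656-44476701, and chr10:44478497-44478542.
Pair at 15.3 kb: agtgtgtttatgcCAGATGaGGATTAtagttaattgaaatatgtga
Site at 17.9 kb: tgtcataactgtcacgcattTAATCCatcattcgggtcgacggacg
Site at 19.8 kb: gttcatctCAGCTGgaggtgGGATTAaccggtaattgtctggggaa

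Set among the 21938 protein-coding genes by the same window rule, the place of *Prdm1* differed by target and by whether the flanks were counted. With the flanks, at least as many peaks were found at 38.7% of genes for H3K4me3 (median 3), 8.98% for H3K27ac (median 4), 3.37% for H3K4me1 (median 15), 12.6% for Otx2 (median 4), and 5.63% for Neurod1 (median 0). Any Neurod1 peak was present at 40.3% of genes and any Otx2 peak at 83.9%. Counted on the gene alone, *Prdm1* had 9 Otx2 and 4 Neurod1 peaks, and 0.729% and 0.365% of genes had at least as many. Its 3 H3K4me3, 11 H3K27ac, and 19 H3K4me1 peaks on the gene were matched or exceeded at 1.52%, 4.75%, and 4.40% of genes, so that H3K4me3 stood lowest of the marks with the flanks and highest without them. These places rest on the distal transcript, which adds the interval between the starts to the gene. The locus was picked as a gene with many intragenic Otx2 and Neurod1 peaks, so high places for both factors followed from that choice. Counts on the gene were not scaled to its length, 91.3 kb at *Prdm1*.

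The genes with the most similar peak counts, by Euclidean distance of log2(count + 1) over the 5 targets, were *Cecr2* (0.42), *Arrb1* (0.42), *Ccnjl* (0.44), *Ift43* (0.45), and *Atp2c2* (0.45). Their Otx2 counts were 10 to 13 and their Neurod1 counts 3 to 5. The only other protein-coding gene in the window was *Atg5*, an autophagy gene that reaches into the downstream flank. Its start lies outside the window, 190 kb from the *Prdm1* start, under its own 15.4-fold H3K4me3 peak. None of the Otx2 or Neurod1 peaks of the window lay on *Atg5*.

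The *Otx2*, *Crx*, and *Neurod1* genes, which encode other photoreceptor TFs, were compared by the same rule. For H3K4me1 the *Prdm1* window had the most peaks, 42, against 35 at *Otx2*, 26 at *Crx*, and 34 at *Neurod1*, though it was also the longest window, 291 kb against 204 to 216 kb. It had 11 Otx2 peaks, against 21, 12, and 12, and 4 Neurod1 peaks, against 7, 3, and 8. On the gene alone the order differed, with 9 Otx2 peaks, against 7, 1, and 2, and 4 Neurod1 peaks, against 0, 1, and 1. *Prdm1* is also the longest gene by its distal transcript, 91.3 kb against 16.1, 14.0, and 4.23 kb. The highest Otx2 fold, 18.0, was near the 18.9 at *Otx2* and the 14.6 at *Crx* and below the 40.5 at *Neurod1*. The highest Neurod1 fold, 6.44, was below the 16.9 at *Otx2* and the 27.4 at *Neurod1* and above the 3.90 at *Crx*.

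The promoters of the 4 genes were compared by H3K4me3 fold and by the share of the H3K4me3 peak covered by H3K27ac, which are unlike measures. The strongest H3K4me3 peak that covered a start was 60.4-fold at *Prdm1*, 64.9-fold at *Otx2*, 46.3-fold at *Crx*, and 40.9-fold at *Neurod1*. H3K27ac covered 4.84% of that peak at *Prdm1* and 4.77% at *Neurod1*, against 30.8% at *Otx2* and 50.1% at *Crx*. Neurod1 peaks over both Otx2 and H3K27ac numbered 4 at *Prdm1*, 4 at *Otx2*, 2 at *Crx*, and 7 at *Neurod1*.

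**Figure D5:**
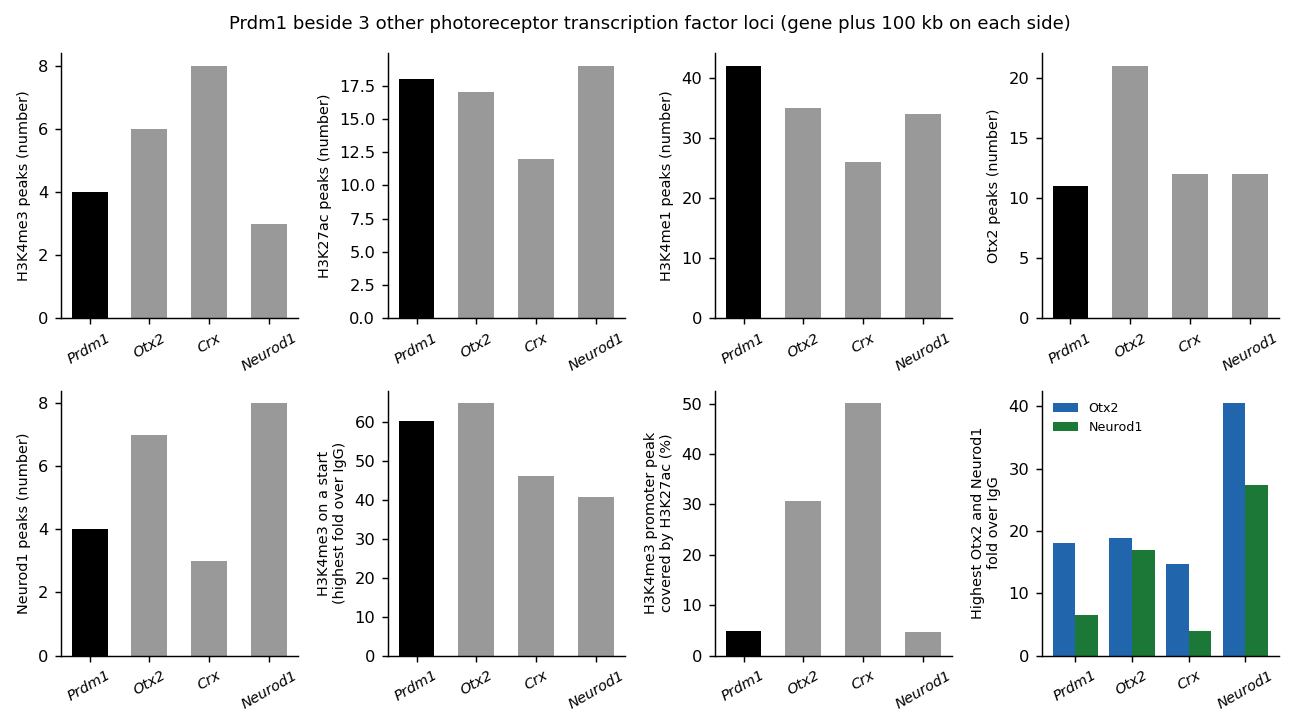
Bars compare the *Prdm1* window (black) with the *Otx2*, *Crx*, and *Neurod1* windows (gray) by number of peaks per target, H3K4me3 fold on a start, percent of that H3K4me3 peak covered by H3K27ac, and highest Otx2 (blue) and Neurod1 (green) fold over IgG. *Prdm1* has the most H3K4me1 peaks (42), in the longest window (291 kb). H3K27ac peaks cover 4.84% of its H3K4me3 promoter peak, a share near that at *Neurod1* and below those at *Otx2* and *Crx*.

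A wider list of 33 genes of photoreceptor and bipolar fate, neurogenesis, and retinal progenitors served to place the locus. H3K4me3 was present on a start in 30 of the 33, against 53.3% of protein-coding genes, with a median of 31.2-fold, and 5 of them had at least the 60.4-fold of *Prdm1*. In 12 of these 30, no H3K27ac lay on that H3K4me3 peak. At least as many peaks as at *Prdm1* were found at 15 genes for Otx2, 9 for Neurod1, 6 for H3K27ac, and 3 for H3K4me1. *Casz1*, a zinc finger TF gene, had the most of both factors, 35 Otx2 and 12 Neurod1 peaks, and *Isl1* had the fewest Otx2 peaks, 2, and no Neurod1 peak. A Neurod1 peak over both Otx2 and H3K27ac was present at 17 of the 33 genes, against 23.6% of protein-coding genes, and 6 had at least the 4 of *Prdm1*, against 1.5%.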

How the data were processed

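CUT&RUN peaks from P2 mouse retina were analyzed. The authors trimmed reads (cutadapt 3.5, Trim Galore 0.6.4), aligned them to GRCm38 with Bowtie2, filtered them with SAMtools 1.12, removed duplicates with UMI-tools without using molecular identifiers, and merged technical replicates. Peak calling used macs2 across the replicates of a target together, against IgG, at a q-value of 0.05. Blacklisted and mitochondrial peaks were removed. Versions not shown here are not given in the sources used here. Fold enrichment over IgG is the ratio that the authors deposited for a peak, and significance is the deposited −log10 q-value. The deposited lists hold 1 pooled value per peak, so read depth is unknown, neither a replicate error nor a counting interval could be given, and no test was made. The labels tie 1 list to all libraries of a target, which gives no view of how far a peak depends on 1 library or on 1 of both Otx2 antibodies.

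Peaks overlapping the *Prdm1* gene with 100 kb on each side were taken from each list. Overlap meant at least 1 bp. Python 3.11.15, numpy 2.4.6, pandas 2.3.3, and matplotlib 3.10.9 were used with GENCODE M21, and interval code tested on simulated data gave 0 differences from bedtools 2.31.1. Percentages of a list or of protein-coding genes are the background measured in the same way. The peaks named singly were all H3K4me3 and Neurod1 peaks, the 10 Otx2 peaks of highest fold, and the 5 highest of H3K27ac and H3K4me1. The weak Otx2 peak at 16.7 kb and single H3K27ac peaks outside this rule were named after their values were seen. The genes named were *Prdm1*, the protein-coding gene overlapping its window, the comparison loci, the extremes of the 33-gene list, and the 5 nearest genes by counts. Noncoding genes were named for position. The values of 1 gene of the list are not reported here. Members and lists were chosen with earlier results of these data known. Promoter sequence came from RefSeq and other sequence from the GRCm38 assembly. Alternatives were stricter peaks, other overlaps, windows, ranks, and gene sets, and motifs in whole peaks, with TAATC added after seeing the data. The search for TAATCC near CAGATG and the choice of the short TAATCC sequences shown were also made after seeing the data. The 13LGS lists, H3K27me3, and H3K9me3 were not analysed here.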

Additional observations from a re-analysis of the deposited data

How the results depend on the processing

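No list separates its libraries, so leaving out a replicate could not be run. No paired analysis was possible because each list gives 1 pooled value per peak, with no replicate columns. Of the values recomputed under other settings, 90 moved by at most 1.5 times and 44 moved by more. With a −log10 q of at least 5, there were 8 H3K27ac peaks, against 18, and 8.06% (Otx2) and 3.16% (Neurod1) of genes had at least as many peaks as *Prdm1*. On the gene alone there were 11 H3K27ac and 19 H3K4me1 peaks, the shares of genes were 1.52% for H3K4me3, 4.75% for H3K27ac, 0.729% for Otx2, and 0.365% for Neurod1, and 18 and 12 of the 33 listed genes had an H3K27ac or a Neurod1 peak, against 30 and 22. Most peak counts at the *Otx2*, *Crx*, and *Neurod1* loci also moved by more than 1.5 times on the gene alone. Merging peaks within 500 bp left 27 H3K4me1 peaks, against 42. By bases covered, the shares of genes were 10.5% for H3K4me3, 1.39% for H3K4me1, and 3.47% for Otx2, and per kb of window that for Otx2 was 19.0%. Among genes with H3K4me3 on a start, they were 13.7% for H3K27ac and 5.58% for H3K4me1. With summits within 200 bp in place of overlap, 2 Otx2 and 2 Neurod1 peaks were paired, against 4 each. The median distance from an Otx2 summit to the nearest Neurod1 summit was 2374 bp over all 11 peaks and 175 bp over overlapping ones. In whole peaks, TAATCC was present in 4 Otx2 peaks, CAGATG in 6, and CAGCTG in 1 Neurod1 peak, and TAATC, added after seeing the data, was near 2 Otx2 summits. The causes of these shifts were not tested. By −log10 q in place of fold, the main H3K4me3 peak moved from 1.48% to 2.31% of its list, and the Otx2 peaks at 15.5, 34.8, 37.6, and 70.6 kb from 0.484%, 2.82%, 3.29%, and 20.6% to 1.75%, 4.61%, 7.87%, and 33.8%.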
